A study of Mus musculus with 10 samples.

Results

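The 2 RNA-seq libraries of the T567A line, in which ezrin-disrupted K7M2 cells carry a non-phosphorylatable ezrin, were compared with the 2 libraries of the empty-vector line, in which the same disrupted cells carry no ezrin cDNA. These are 4 of the 10 libraries of the series, and changes are given as T567A minus empty vector. Of 41743 genes in the count tables, 12595 passed a filter on low counts and were tested. K7M2 is a mouse osteosarcoma cell line. Its ezrin gene was disrupted with CRISPR/Cas9, and the disrupted cells were then stably transfected with the empty vector or with an ezrin cDNA that was wild type, T567A or T567D. The labels do not name the species of the cDNA. All lines were grown in DMEM with fetal bovine serum and received no treatment. Each construct was present in 1 stable line, whether a pool or a clone is not stated, so that the construct and the line that carries it cannot be told apart. Whether the authors' counting used strand is not given in the sources used here, and reads of a gene and an antisense or overlapping gene may therefore be mixed. The labels do not say whether both libraries of a line were grown separately. The p-values therefore reflect only how much these libraries differ from each other, and that spread may be technical.

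Ezrin belongs to the ERM family, with moesin and radixin, which tie membrane proteins to cortical actin. In the closed form its ends bind each other and hide the actin-binding site; phosphorylation of threonine T567 near the C-terminal end favours the open form. Alanine at this position cannot be phosphorylated, and the T567A protein is used as a model of the closed form. The comparison with empty vector therefore asks what ezrin that cannot be phosphorylated there does to the transcriptome of cells whose own ezrin gene was disrupted. The reference mouse codon for this threonine is shown in capitals in its context, because it is the position at which the constructs differ. The stretch runs 5′ to 3′ on the coding strand (GENCODE M21 transcript on GRCm38, chr17:6739333-6739395, minus strand, exon 13 of 13):
Ezr T567 codon: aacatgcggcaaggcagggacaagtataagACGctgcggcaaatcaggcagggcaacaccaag
ACG encodes threonine. The counts are per gene, show neither this codon nor the edit, and do not separate cDNA transcripts from transcripts of the disrupted locus.

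Ezr mRNA was higher in the T567A line. Its level was 72.4 and 72.9 CPM (counts relative to the library total after TMM scaling) in the empty-vector libraries and 248 and 253 CPM in the T567A libraries. Both T567A libraries lay above both empty-vector libraries, as they did for 36.4% of all tested genes (35.5% had both below), and the log2 fold change was 1.78 ± 0.066 (standard error; adjusted p = 7.8e-15 by the quasi-likelihood test of edgeR, Benjamini-Hochberg). The wild-type libraries held 230 and 234 CPM and the T567D libraries 204 and 182 CPM. T567A minus wild type was 0.11 ± 0.062 (adjusted p = 0.17), and 0.17 with the GC correction described below (adjusted p = 0.019). Msn, which encodes moesin, fell from 530 and 527 CPM to 385 and 375 CPM (log2 fold change -0.47 ± 0.057, adjusted p = 7.1e-07). Rdx, which encodes radixin, was at 242 and 249 CPM and at 221 and 226 CPM (-0.14 ± 0.062, adjusted p = 0.077), and passed the test with the GC correction (-0.24, adjusted p = 0.00097).

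Total counts were 14679424 and 18230763 for T567A and 17669729 and 17227902 for empty vector. The second principal component of all 10 libraries, with 19.6% of the variance, set the T567A line apart from the other lines. The T567A libraries also differed more from each other than those of any other line (chi-square of the counts per degree of freedom 8.45, against 2.44 to 4.35). Level moved with the GC content of the transcript in these libraries. Among the 12428 tested genes with a GC value, divided into 10 bins, the median change fell from 0.23 in the bin with the lowest GC content (31.0% to 41.2%) to -0.25 in the bin with the highest (57.7% to 75.5%), while the wild-type minus empty-vector medians of these bins were -0.03 and 0.01. The slope was steeper in T567A replicate 2, from 0.29 to -0.27, than in replicate 3, from 0.08 to -0.16, on the log2 scale relative to each gene's mean. Its part in the results was not tested. Values with the GC content removed library by library (the GC correction) are given beside some lists and genes. They are not given for every list, and a list without them may also have moved. Markers of other cell types were at or near 0 in the 4 libraries: summed RPKM was at most 0.851 for 8 lymphoid, 7 endothelial, 8 epithelial, 6 adipocyte and 6 chondrocyte markers. Of 10 myeloid markers, Csf1r was high in every library (1549 to 1681 CPM) while Adgre1, Tyrobp and Laptm5 had 0 counts in all 4. Of 8 lymphoid markers Cd79a alone was tested and rose, from 0.113 and 0.347 CPM to 1.04 and 1.28 CPM (2.32, adjusted p = 0.0017, and 1.72 to 3.27 when either empty-vector library was left out), while others of the list, among them Cd3e, Cd3g, Cd2, Nkg7 and Ms4a1, were at 0. Of 7 osteoblast markers, Runx2, Alpl and Col1a1 passed the filter. The summed RPKM of the list was 50.5 and 51.7 in the empty-vector libraries and 88.7 and 91.1 in the T567A libraries. Col1a1, by far the highest of the tested markers, rose from a mean of 324 to 603 CPM. Runx2 rose by 0.25 on the log2 scale and Alpl fell by 0.98, so the sum does not show a rise of the list as a whole. Vim, the mesenchymal intermediate filament gene, was at 8538 and 8485 CPM and fell to 5367 and 6144 CPM (-0.56). The labelled osteoblast type was thus met by few of its markers in either line.

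**Figure D1:**
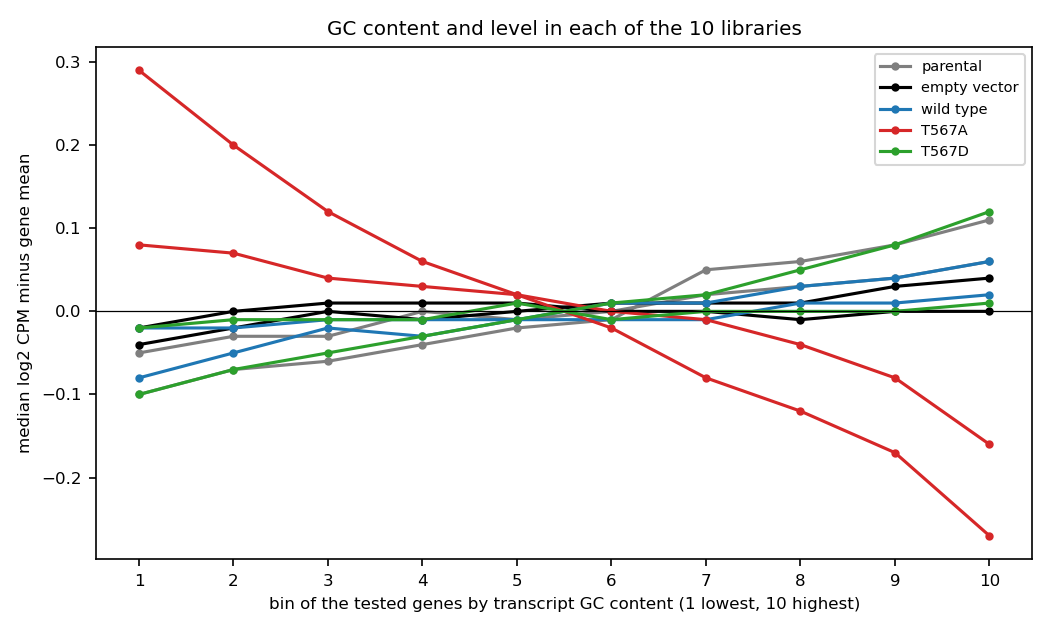
Median log2 CPM minus the gene mean over all libraries (y axis) for each of 10 bins of the tested genes ordered by transcript GC content (x axis), with 1 line per library coloured by cell line. Both T567A libraries slope down, from 0.29 to -0.27 and from 0.08 to -0.16, while the 8 others stay between -0.10 and 0.12.

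In T567A minus empty vector, 5842 genes (46.4% of those tested) passed an adjusted p of 0.05. Of these, 2987 (23.7%) were higher in the T567A line and 2855 (22.7%) were lower. Beyond a fold of 2 there were 576 higher genes (4.57%) and 303 lower genes (2.41%), so that large increases outnumbered large decreases. The median log2 fold change over all tested genes was 0.01. The same tests against the lines with other ezrin constructs called 4983 genes for T567A minus wild type (39.6%) and 5558 for T567A minus T567D (44.1%). The member counts of each gene list below are read against the shares of 23.7% and 22.7%, and the plot of calls by gene list sets them side by side.

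**Figure D2:**
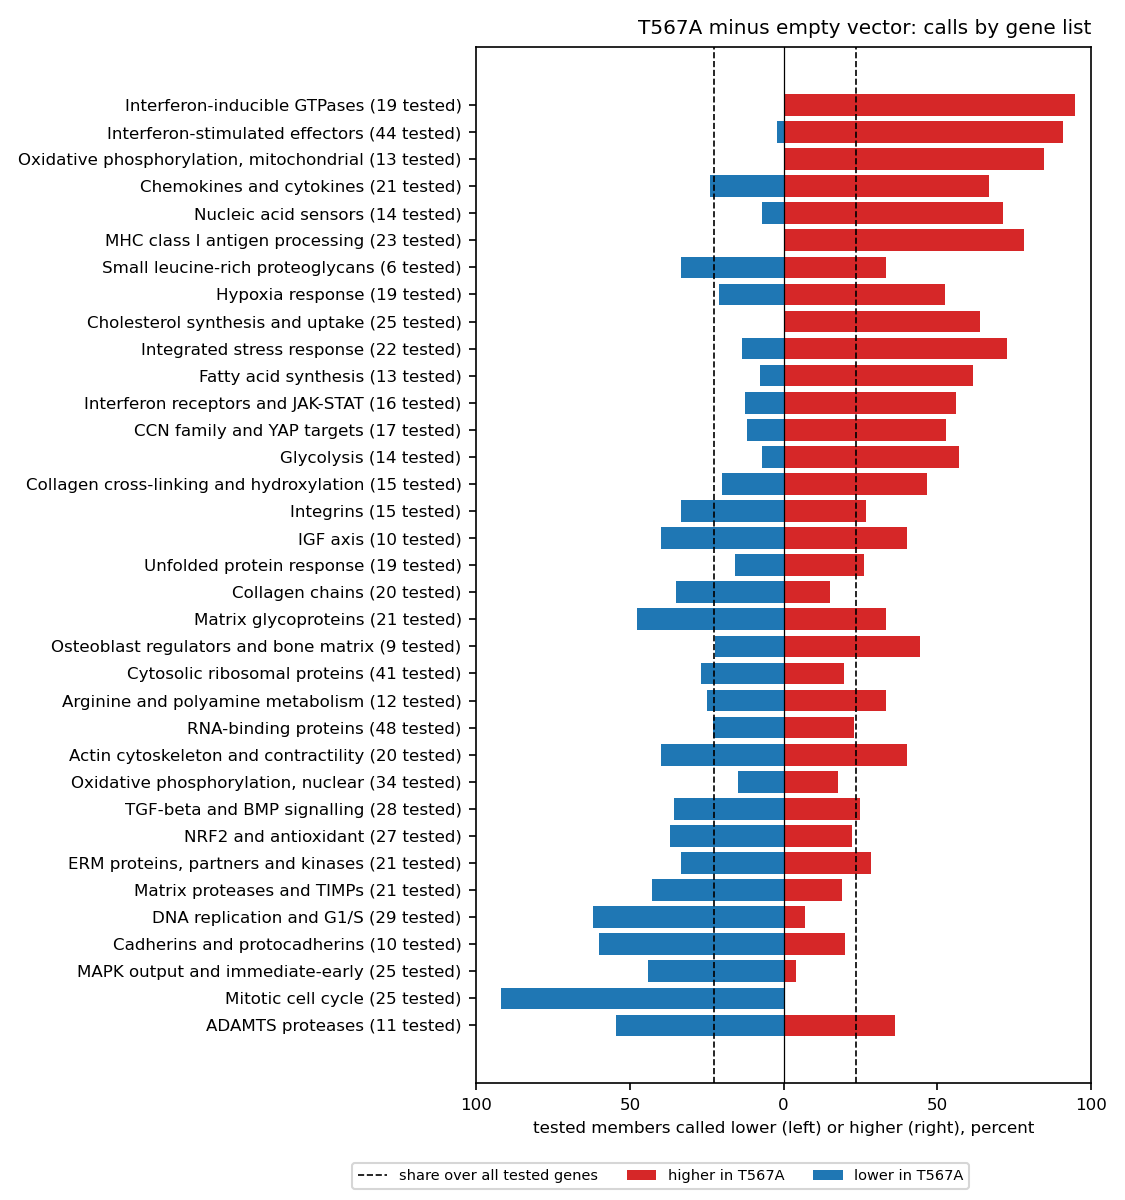
Share of the tested members of each gene list called higher (red, to the right) or lower (blue, to the left) in T567A minus empty vector, in percent, ordered by the list's median change, with the shares over all tested genes as dashed lines. Interferon lists and MHC class I genes reach 71.4% to 94.7% higher except for the receptor list at 56.2%, and mitotic genes reach 92% lower.

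Genes that interferon induces rose almost throughout. Of 44 tested interferon-stimulated effectors, 40 rose (90.9%) and 1 fell, with a median log2 fold change of 1.02. In bulk RNA, more cells that express such genes and more RNA per cell cannot be told apart. With T567A replicate 2 left out 39 rose, as they did with replicate 3 left out, and with the GC correction 40 rose. Rsad2, which encodes the antiviral radical SAM enzyme viperin, was at 19.3 and 16.3 CPM in the empty-vector libraries and at 120 and 106 CPM in the T567A libraries. The lines did not overlap, and the log2 fold change was 2.66 ± 0.093 (adjusted p = 4.5e-15). Ifit1, which encodes a protein that binds foreign RNA ends, went from 166 and 157 CPM to 769 and 776 CPM (2.25 ± 0.059, adjusted p = 2.9e-17). Ifit3 went from 119 and 114 CPM to 627 and 618 CPM (2.42). Isg15, a ubiquitin-like modifier, went from 108 and 94.3 CPM to 283 and 325 CPM (1.59 ± 0.082). These 4 genes were thus several-fold higher in both T567A libraries. Mx1, a dynamin-like antiviral GTPase, was low in every line but rose from 0.452 and 0.405 CPM to 6.70 and 4.79 CPM (3.71 ± 0.32). Ifi27 fell, from 113 and 110 CPM to 81.1 and 91.1 CPM (-0.37), and Epsti1, Ifi27l2a and Pml did not pass the test.

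The interferon-stimulated response element (ISRE) is the promoter element to which complexes that hold STAT2 and IRF9, and the IRF factors, bind. Of 34 effector genes with a RefSeq promoter window of 250 bases before to 50 after the start, 15 (44.1%) held its core on either strand, the letters TTTC, any 2 bases and TTTC again, against 3.99% of the 27025 genes with such a window. Stretches of the promoters of the 4 genes above, 170 to 51 bases before the start and read 5′ to 3′ on the gene's strand, show it in capitals (RefSeq, GRCm38.p6):
Rsad2 chr12:26456503-26456622, minus strand: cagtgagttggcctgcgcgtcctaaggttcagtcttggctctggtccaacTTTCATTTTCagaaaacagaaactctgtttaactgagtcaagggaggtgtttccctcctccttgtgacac
Ifit1 chr19:34640719-34640838, plus strand: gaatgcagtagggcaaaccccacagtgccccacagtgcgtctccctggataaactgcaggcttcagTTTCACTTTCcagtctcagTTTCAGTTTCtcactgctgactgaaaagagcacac
Ifit3 chr19:34583359-34583478, plus strand: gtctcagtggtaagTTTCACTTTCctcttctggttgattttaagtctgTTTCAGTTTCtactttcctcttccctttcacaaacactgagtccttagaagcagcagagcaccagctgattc
Isg15 chr4:156200869-156200988, minus strand: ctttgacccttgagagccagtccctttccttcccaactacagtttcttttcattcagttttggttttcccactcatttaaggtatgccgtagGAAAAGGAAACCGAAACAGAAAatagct
The capitals in Isg15 are 3 overlapping matches on the opposite strand. Among the interferon-inducible GTPases the element stood in 10 of 11 windows (90.9%). The share was lower in 4 other lists described below. It stood in 2 of 10 nucleic acid sensor windows (20.0%) and 3 of 15 receptor and JAK-STAT windows (20.0%). For MHC class I genes it was 5 of 19 (26.3%) and for chemokines and cytokines 1 of 15 (6.67%). In all these lists the match describes the sequence and says nothing of binding in these cells.

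The interferon-inducible GTPases, the guanylate-binding proteins and the immunity-related GTPases that attack the vacuoles of intracellular pathogens, rose in 18 of 19 tested genes and fell in none, with a median of 1.55. In all 19, both T567A libraries lay above all 8 other libraries of the series, which held for 16.8% of all tested genes. Iigp1 rose from 38.0 and 40.0 CPM to 251 and 190 CPM (2.50 ± 0.11), and Gbp4 from 20.5 and 20.1 CPM to 83.6 and 71.8 CPM (1.94 ± 0.088). The lines did not overlap for either gene. Tgtp1 and Tgtp2 are near-identical copies whose reads may be split, and both rose (2.57 and 2.37). Gvin1 had 0 counts in both empty-vector libraries, against 16 and 50 counts for T567A. It did not pass the test, and passed it when only the 4 libraries of both lines were fitted (adjusted p = 5.3e-05).

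Nucleic acid sensors, which detect viral or misplaced RNA and DNA, rose in 10 of 14 tested genes and fell in 1 (median 0.56). Tlr3, the endosomal receptor for double-stranded RNA, rose from 35.5 and 34.5 CPM to 132 and 120 CPM (1.84 ± 0.087). Ifih1 and Dhx58, cytosolic RNA sensors of the RIG-I family, rose by 1.32 and 1.56, and Zbp1, a sensor of Z-form nucleic acid, by 1.72. The exception was the adaptor gene Mavs, which fell from 48.2 and 46.0 CPM to 34.5 and 37.2 CPM (-0.39). Among the interferon receptors and JAK-STAT genes, 9 of 16 rose and 2 fell (median 0.30). Stat2 rose from 126 and 125 CPM to 297 and 285 CPM (1.22), and Irf7, a factor that amplifies interferon production, from 153 and 145 CPM to 298 and 357 CPM (1.14). The receptor gene Ifnar1 rose by 0.31, whereas Jak1 fell (-0.31) and Socs1, a feedback inhibitor of the pathway, fell (-0.63).

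Of the interferon ligands, Ifnb1, named after its values were seen, had 9 and 4 counts in the empty-vector libraries and 16 and 18 counts in the T567A libraries (log2 fold change 1.48 ± 0.45, adjusted p = 0.011). The other lines had 3 to 6 counts per library. The 20 other ligand genes of types I, II and III had at most 2 counts in any library, and 15 of them had 0 in all 10. Ifnb1 thus had few counts in every line, and its difference rests on few reads. DESeq2 gave 1.51 (adjusted p = 0.19), and the value was 1.02 (adjusted p = 0.16) without empty-vector replicate 3, 1.43 (adjusted p = 0.052) without T567A replicate 2 and 2.13 without empty-vector replicate 2.

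**Figure D3:**
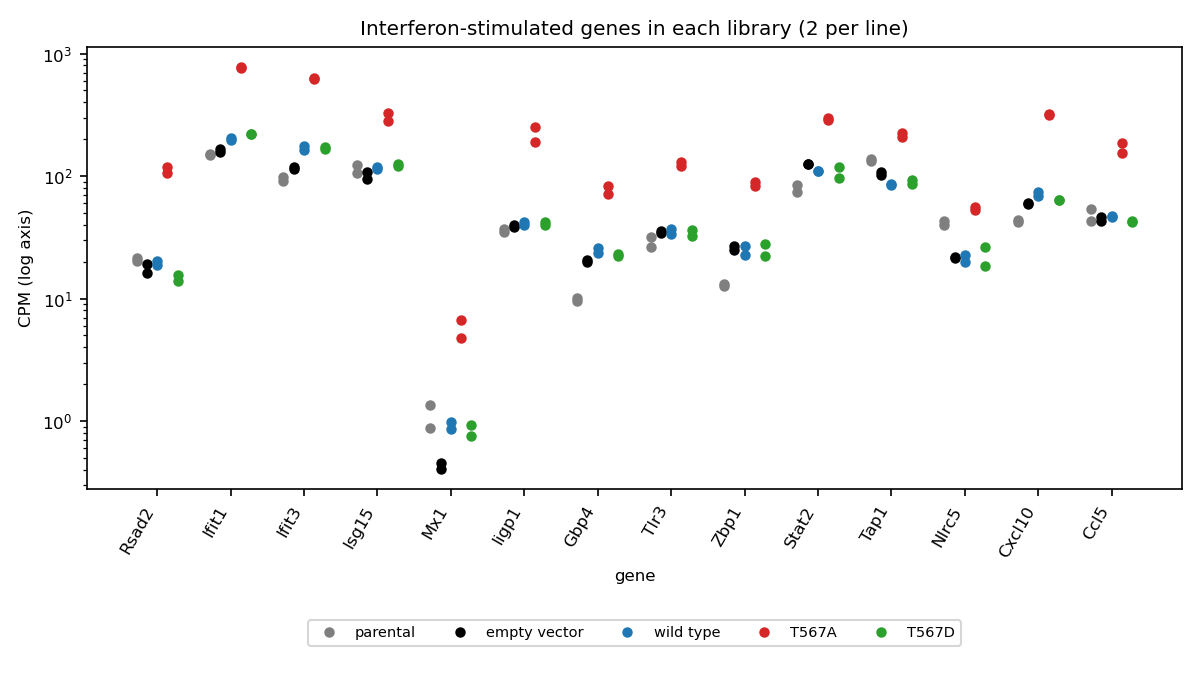
CPM on a log axis (y) of the interferon-stimulated genes named on the axis (x) in each library, coloured by cell line, with 1 point per library. For each gene both T567A libraries lie above the 8 others, as for Rsad2 at 120 and 106 CPM.

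Genes of MHC class I antigen presentation, the pathway that shows cytosolic peptides to T cells, rose in 18 of 23 tested members and fell in none (median 0.45). Nlrc5, the transactivator of the pathway, rose from 21.8 and 21.3 CPM to 55.9 and 52.9 CPM (1.33 ± 0.12). Tap1, a subunit of the peptide transporter, rose from 107 and 103 CPM to 208 and 226 CPM (1.05 ± 0.065). The nonclassical genes H2-T22 and H2-T23 rose by 0.99 and 1.00, and the classical genes H2-K1 and H2-D1 by less, 0.48 and 0.41. B2m, the light chain, went from 659 and 619 CPM to 879 and 1012 CPM (0.57). The immunoproteasome subunit gene Psmb9 rose (0.65), while Psmb8 was at 0.07 and did not pass the test (adjusted p = 0.47). H2 genes are similar in sequence, and reads between them may be split.

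Chemokines and cytokines rose in 14 of 21 tested genes and fell in 5 (median 0.62). Cxcl10, a ligand of the T-cell chemokine receptor CXCR3, rose from 59.6 and 60.7 CPM to 318 and 323 CPM (2.41 ± 0.065, adjusted p = 2.9e-17). The other ligands of this receptor, Cxcl9 and Cxcl11, rose by 2.57 (3.47 without empty-vector replicate 3) and 2.86 from lower levels. Ccl5 rose from 46.4 and 42.6 CPM to 155 and 186 CPM (1.94). Genes that fell included Cxcl12, the ligand of CXCR4, from 143 and 142 CPM to 83.5 and 74.8 CPM (-0.85), and Cxcl5, a neutrophil chemokine, from 152 and 148 CPM to 54.0 and 47.8 CPM (-1.56). Lif fell by 1.29 and Tnf by 2.02 on the log2 scale, the latter from 2.66 and 2.89 CPM. Cxcl5 in the empty-vector line stood above every other line, and the T567A libraries lay above wild type (0.67) and T567D (0.88), so that the decrease of this gene was smaller than in those lines.

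Lipid synthesis genes rose as well. Of 25 tested genes of cholesterol synthesis and uptake, 16 rose and none fell (median 0.37), and the count was the same with the GC correction. Without T567A replicate 3, 16 were higher and 4 lower, and without empty-vector replicate 3, 1 was lower. Msmo1 rose from 126 and 120 CPM to 209 and 205 CPM (0.75 ± 0.062, adjusted p = 2.7e-09) and Cyp51 by 0.69 ± 0.064. Both encode demethylation steps of the sterol pathway. Sqle, squalene epoxidase, rose by 0.62 and Idi1 by 0.56.

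The other ezrin constructs gave a different picture for these genes. In wild type minus empty vector none of the 25 rose and 22 fell (median -0.45), where 8.19% and 7.31% of all genes did. In T567D minus empty vector none rose and 16 fell (median -0.27), where 9.38% and 8.29% of all genes did. T567A minus wild type called 23 higher and none lower (median 0.90, against shares of 20.4% and 19.1% over all genes), and T567A minus T567D called 21 higher and none lower (median 0.66, against 22.5% and 21.6%). These comparisons share the empty-vector or the T567A libraries.

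Fatty acid synthesis genes rose in 8 of 13 tested members and fell in 1 (median 0.35). Of the desaturase genes, Scd1 rose from 254 and 248 CPM to 532 and 571 CPM (1.14 ± 0.078) and Scd2 from 412 and 404 CPM to 751 and 802 CPM (0.93 ± 0.068). Acss2 and Acly, which supply acetyl-CoA, rose by 0.95 and 0.55. Fasn, the fatty acid synthase, was at -0.12 and did not pass the test, and neither did the regulator gene Srebf1 (-0.04), which with the GC correction was at 0.17 (adjusted p = 0.020). The SREBP element letters TCACNCCAC stood in 1 of 17 promoter windows of the cholesterol genes (Hmgcs1) and in none of 10 of the fatty acid genes, against 1.44% of all genes.

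**Figure D4:**
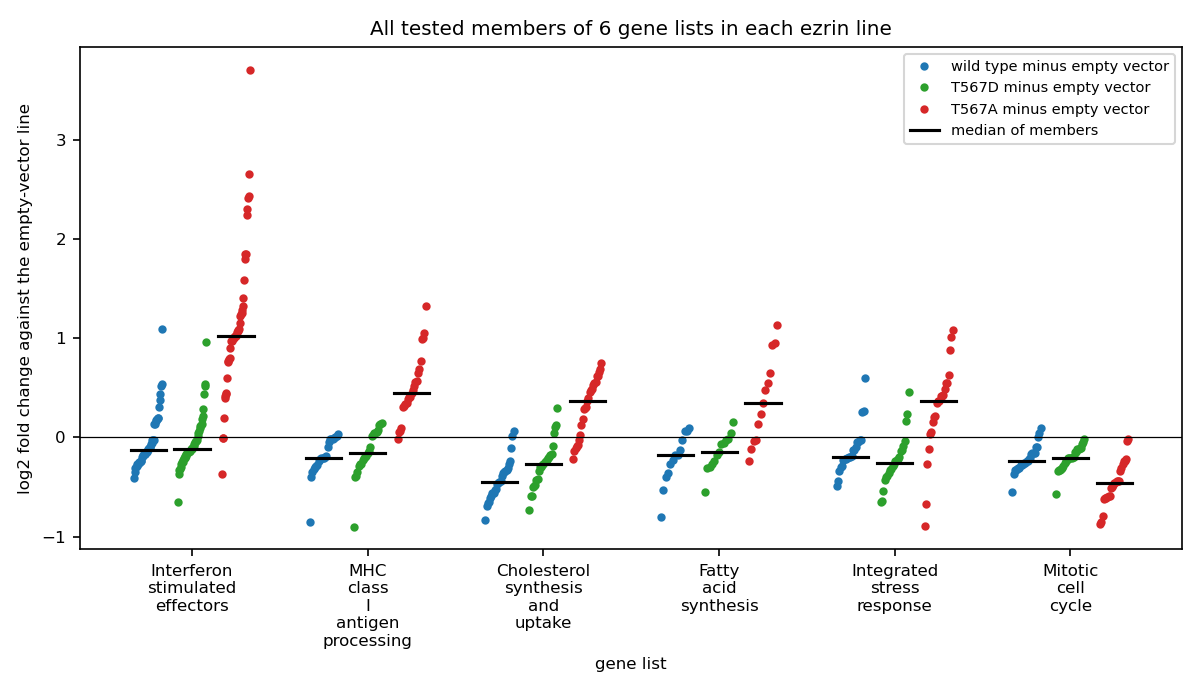
Log2 fold change against the empty-vector line (y axis) of every tested member of 6 gene lists (x axis), for wild type (blue), T567D (green) and T567A (red), with 1 point per gene and a bar at the median. The T567A medians of the first 5 lists are 1.02, 0.45, 0.37, 0.35 and 0.37, above those of the other constructs, which are between -0.45 and -0.12, and the mitotic medians are -0.24, -0.21 and -0.46.

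Genes of mitosis were lower. Of 25 tested members none rose and 23 fell (median -0.46), and 25 fell with the GC correction. Ccnb1, the cyclin that drives entry into mitosis, fell from 297 and 301 CPM to 156 and 170 CPM (-0.87 ± 0.063, adjusted p = 3.6e-10). Cenpa, the centromeric histone, fell from 199 and 187 CPM to 105 and 108 CPM (-0.85), and Cdc20, an activator of the anaphase-promoting complex, from 214 and 213 CPM to 115 and 131 CPM (-0.79). Foxm1, a transcription factor of mitotic genes, fell by 0.59 and the proliferation marker Mki67 by 0.48 on the log2 scale. Top2a and Kif11 did not pass the test (-0.02 and -0.04), and with the GC correction were at -0.14 and -0.19 and passed it (adjusted p = 0.042 and 0.0080). Members of this list also fell with the other constructs: 15 of the 25 fell in wild type minus empty vector (median -0.24, where 7.31% of all genes fell) and 16 in T567D minus empty vector (median -0.21, where 8.29% did), with none higher in either. In T567A minus wild type 15 of the 25 were lower (median -0.28, where 19.1% of all genes were), and in T567A minus T567D 14 were (median -0.24, where 21.6% were), with none higher in either. These comparisons share libraries. Cell number and growth rate were not analysed here.

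DNA replication and G1/S genes fell in 18 of 29 tested members and rose in 2 (median -0.25). With the GC correction 21 fell and 2 rose. Pold1, the catalytic subunit of polymerase delta, fell from 155 and 155 CPM to 88.5 and 96.6 CPM (-0.74 ± 0.071), E2f1 fell by 0.56 and Mcm7, a subunit of the replicative helicase, by 0.40. The increases were Ccnd2, a D-type cyclin, from 128 and 133 CPM to 228 and 207 CPM (0.74 ± 0.065), and the inhibitor gene Cdkn1b (0.33). Cdkn1a, a p53 target, fell (-0.41). MAPK output and immediate-early genes fell in 11 of 25 tested members and rose in 1 (median -0.36). Etv4 and Etv5, ETS factors downstream of ERK, fell by 0.94 and 0.72, and Jun by 0.67, from 186 and 195 CPM to 116 and 123 CPM. Dusp6 and Spry4, feedback inhibitors of ERK signalling, were at -0.03 and -0.02 and did not pass the test.

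Integrated stress response genes, targets of the amino acid and stress factor ATF4, rose in 16 of 22 tested members and fell in 3 (median 0.37). Atf4 itself rose from 451 and 434 CPM to 549 and 596 CPM (0.37 ± 0.058). Nupr1 rose from 51.2 and 48.8 CPM to 100 and 110 CPM (1.08 ± 0.087), the cystine transporter gene Slc7a11 from 18.9 and 20.8 CPM to 41.2 and 39.1 CPM (1.01 ± 0.11), and Aldh1l2, a mitochondrial folate enzyme, from 152 and 160 CPM to 299 and 277 CPM (0.88 ± 0.064). Cebpb fell by 0.89 and Atf5 by 0.67 on the log2 scale. Unfolded protein response genes moved little, with 5 of 19 higher and 3 lower (median 0.05), and 3 were higher when either empty-vector library was left out. Herpud1 rose by 0.60 and Hspa5, the ER chaperone BiP, by 0.32, whereas Manf fell (-0.44).

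NRF2 and antioxidant genes fell in 10 of 27 tested members and rose in 6 (median -0.09), and 6 fell without T567A replicate 2. Nqo1, a quinone reductase and a standard NRF2 target, fell from 144 and 136 CPM to 70.4 and 75.4 CPM (-0.94 ± 0.070). Gclm and Txnrd1 fell by 0.51 and 0.49, while Sod1 rose by 0.64. Hypoxia response genes rose in 10 of 19 tested members and fell in 4 (median 0.41), while DESeq2 called 8 higher and 3 lower. Hif1a rose from 188 and 194 CPM to 345 and 321 CPM (0.80 ± 0.067) and Bnip3, a mitophagy receptor gene, by 0.73. Egln3, a HIF prolyl hydroxylase gene that is itself a HIF target, fell from 7.69 and 9.43 CPM to 1.86 and 2.17 CPM (-2.07 ± 0.17), and Vegfa fell by 0.34. Glycolysis genes rose in 8 of 14 tested members and fell in 1. With the GC correction 10 rose and none fell. When only the 4 libraries of both lines were fitted, 6 rose and 1 fell. Hk1 was at 0.44 and Pgam1 at 0.42, while Pkm (-0.11) did not pass the test.

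Mitochondrially encoded genes of oxidative phosphorylation rose in 11 of 13 tested members and nuclear-encoded ones in 6 of 34, with 5 of the latter lower. The count of lower nuclear genes was 9 with the GC correction, 2 without T567A replicate 2, 11 without T567A replicate 3 and 2 without empty-vector replicate 2, and 3 rose without empty-vector replicate 3. The medians were 0.83 and -0.04. Mitochondrial genes took 1.90% and 1.44% of the T567A counts and 1.09% and 0.870% of the empty-vector counts. T567A replicate 2 was the highest: mt-Co1, a subunit of complex IV, was at 2725 and 2132 CPM in the empty-vector libraries and at 4551 and 3570 CPM in the T567A libraries (0.74, adjusted p = 0.032; 0.57 and adjusted p = 0.15 without T567A replicate 2). The transcripts are low in GC (median 37.1%), and the count of higher members was 5 with the GC correction, 2 without T567A replicate 2, 5 and 2 when empty-vector replicates 2 and 3 were left out in turn, and 6 when only the 4 libraries of both lines were fitted. Calls of mt-Atp8, mt-Nd4 and mt-Nd4l were each lost without T567A replicate 2 (adjusted p of 0.11, 0.16 and 0.15). In T567A minus wild type, 1 of the 13 was higher and none lower (median 0.45, where 20.4% of all genes were higher), and in T567A minus T567D 4 were higher and none lower (median 0.60, where 22.5% were). None of the 13 was called in wild type or T567D minus empty vector (medians 0.44 and 0.23).

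Actin and contractility genes moved both ways, with 8 of 20 tested members higher and 8 lower (median -0.03). Acta2, smooth muscle actin, rose from 23.7 and 20.9 CPM to 35.8 and 39.1 CPM (0.75 ± 0.093), and Fscn1, which bundles filopodial actin, by 0.56. Actn4, a crosslinker, fell from 656 and 656 CPM to 388 and 428 CPM (-0.68 ± 0.059), Pdlim7 by 0.80 and Flna by 0.42. Srf, the actin-regulated transcription factor, fell by 0.52, but was at -0.11 with the GC correction (adjusted p = 0.23). Of the ERM proteins, their partners and kinases, 6 of 21 rose and 7 fell. Apart from Ezr, the membrane partner gene Podxl rose from 3.50 and 3.01 CPM to 9.94 and 9.63 CPM (1.58 ± 0.16), and Slc9a3r1, the scaffold EBP50, by 0.58. Pdpn, podoplanin, which binds ERM proteins, fell from 65.5 and 60.2 CPM to 26.6 and 25.4 CPM (-1.27 ± 0.080). Cd44 was at -0.10 (adjusted p = 0.14), and at -0.19 with the GC correction (adjusted p = 0.0024). The kinase gene Stk10 fell by 0.42, while Slk was at 0.02.

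Integrins rose in 4 of 15 tested genes and fell in 5 (3 without T567A replicate 2 or empty-vector replicate 3). Itga3, a laminin receptor subunit, rose from 427 and 448 CPM to 938 and 1023 CPM (1.16 ± 0.060, adjusted p = 1.6e-12), and Itga10 and Itga11, collagen receptor subunits, by 1.61 and 3.15. Itgb7 fell from 347 and 334 CPM to 169 and 184 CPM (-0.95) and Itgb5 by 0.58, while Itgb1, the beta subunit that pairs with the chains of Itga3, Itga10 and Itga11, was at 0.07 and did not pass the test. Cadherins and protocadherins fell in 6 of 10 tested genes and rose in 2 (6 and 1 with the GC correction), with Pcdh7 at -0.66 and Cdh13 at -0.59. Neither rise passed the test without T567A replicate 2 or without empty-vector replicate 3.

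Collagen chains fell in 7 of 20 tested genes and rose in 3, which were Col12a1 (1.19), Col1a1 (0.90) and Col4a5 (0.90). Col1a1 rose from 320 and 327 CPM to 598 and 609 CPM, whereas its partner chain Col1a2 was at 0.12 and did not pass the test (0.25 with the GC correction, adjusted p = 0.00044). Col18a1 fell from 1000 and 1008 CPM to 618 and 655 CPM (-0.66 ± 0.066), Col5a1 by 0.83, Col6a1 by 0.59 and Col6a2 by 1.34. The list is rich in GC (median 57.9%), and with the GC correction 8 fell and 5 rose, with Col18a1 at -0.36. Without T567A replicate 3, 5 rose as well. Matrix glycoproteins fell in 10 of 21 tested genes and rose in 7 (7 and 6 with the GC correction). Fn1, fibronectin, fell from 118 and 139 CPM to 49.9 and 51.4 CPM (-1.34 ± 0.098, adjusted p = 1.5e-08) and Tnc, tenascin C, fell by 1.54 on the log2 scale. Thbs1, thrombospondin 1, rose from 463 and 506 CPM to 1596 and 1639 CPM (1.74 ± 0.064, adjusted p = 7.8e-15). In wild type and T567D minus empty vector, Fn1 was at 0.38 and 1.04 and Thbs1 at 0.46 and 0.62.

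The small leucine-rich proteoglycans held both of the strongest matrix increases. Ogn, osteoglycin, was at 51.6 and 53.3 CPM in the empty-vector libraries and at 542 and 514 CPM in the T567A libraries (3.33 ± 0.073, adjusted p = 2e-18). Omd, osteomodulin, its neighbour 15.2 kb away on chromosome 13, was at 4.35 and 4.34 CPM and at 39.6 and 36.9 CPM (3.13 ± 0.11). The wild-type and T567D libraries lay between those of the T567A and empty-vector lines, at 10.1 to 10.8 CPM for Omd and 117 to 129 CPM for Ogn. Prelp fell (-0.99), and 2 of the 6 tested members rose and 2 fell (1 without T567A replicate 2). Of the collagen cross-linking and hydroxylation genes, 7 of 15 rose and 3 fell (1 with the GC correction, without T567A replicate 2 or without empty-vector replicate 2). Loxl4, a lysyl oxidase, rose from 144 and 151 CPM to 415 and 467 CPM (1.58 ± 0.065) while Lox fell from 255 and 256 CPM to 125 and 101 CPM (-1.18 ± 0.082), so that enzymes of 1 family moved in opposite directions.

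Matrix proteases and TIMPs fell in 9 of 21 tested genes (5 without T567A replicate 2 or empty-vector replicate 2) and rose in 4. Mmp9, gelatinase B, rose from 171 and 178 CPM to 266 and 308 CPM (0.72 ± 0.070). Of the inhibitor genes, Timp3 rose by 0.55, while Timp1 (-0.26) and Timp2 (-0.15) fell. Plaur, the urokinase receptor, fell by 0.41 and Mmp11 by 0.91. Among ADAMTS proteases 4 of 11 rose and 6 fell. The aggrecan- and versican-cleaving Adamts5 and Adamts1 rose from 30.7 and 36.7 CPM to 148 and 135 CPM (2.07 ± 0.092) and from 41.9 and 42.9 CPM to 136 and 122 CPM (1.60 ± 0.077). Adamts2, which processes procollagen, fell from 13.4 and 13.8 CPM to 2.69 and 2.23 CPM (-2.47 ± 0.16).

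TGF-beta and BMP genes changed by ligand. Tgfb1 fell from 57.0 and 57.8 CPM to 29.0 and 30.5 CPM (-0.95 ± 0.074), while Tgfb2 and Tgfb3 rose by 0.97 and 1.39 from lower levels. Bmp2 rose from 10.6 and 11.7 CPM to 50.7 and 44.5 CPM (2.09 ± 0.10). The inhibitory SMAD genes Smad7 and Smad6, which TGF-beta and BMP signals induce, fell by 1.01 and 0.94. In the whole list 7 of 28 tested genes rose and 10 fell, and with the GC correction 12 fell. Osteoblast regulators rose in 4 of 9 tested genes and fell in 2. Phex, an osteoblast and osteocyte peptidase that controls phosphate handling, rose by 1.64 and Runx2, the lineage factor, by 0.25 (0.14 without T567A replicate 2, adjusted p = 0.24), whereas Alpl, alkaline phosphatase, fell from 5.20 and 6.07 CPM to 2.21 and 3.40 CPM (-0.98). CCN family and YAP target genes rose in 9 of 17 tested members and fell in 2. Ccn1 rose from 932 and 931 CPM to 1209 and 1315 CPM (0.44) while Ccn2, also known as CTGF, fell from 176 and 169 CPM to 107 and 118 CPM (-0.61). Of the IGF axis, 4 of 10 rose and 4 fell (1 without empty-vector replicate 3). Igfbp4, an IGF-binding protein gene, rose from 12.1 and 11.6 CPM to 47.3 and 49.7 CPM (2.03 ± 0.089).

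RNA-binding protein genes were called at the rate of the background, 11 of 48 higher and 11 lower (22.9% each, median -0.03). Taf15 (0.50) and Npm1 (0.44) rose, while Khsrp (-0.37) fell. These genes are low in GC (median 44.1%). With the GC correction 5 rose and 18 fell, and the number that rose was 17 without T567A replicate 3, and 6 and 5 when empty-vector replicates 2 and 3 were left out in turn. Cytosolic ribosomal protein genes likewise gave 8 of 41 higher and 11 lower, 12 higher and 11 lower with the GC correction, and 3 higher without empty-vector replicate 3. Rpl19 and Rpl23 rose by 0.63 and 0.54, while Rpl15 fell by 0.58. Of the arginine and polyamine genes, 4 of 12 rose (2 with the GC correction or without T567A replicate 2, 1 when either empty-vector library was left out) and 3 fell. Odc1, the first enzyme of polyamine synthesis, fell by 0.37.

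The largest single changes lay mostly outside these lists. Ranked by fold change among called and annotated genes other than pseudogenes and unnamed gene models, with the higher line averaging 10 CPM or more and no overlap between the libraries of both lines, the 12 largest increases were Megf6, Fmnl1, Ogn, Hap1, Itga11, Omd, Abca9, Chd3, Mpeg1, Rsad2, Tgtp1 and Abi3bp. Cxcl11 (2.86), which GENCODE types as a polymorphic pseudogene, was left out of this ranking. Megf6, an EGF-repeat protein gene, was at 0.339 and 0.694 CPM in the empty-vector libraries and at 19.5 and 20.2 CPM in the T567A libraries (5.25 ± 0.19). Fmnl1, a formin that builds actin filaments, went from 1.07 and 0.983 CPM to 13.1 and 14.5 CPM (3.74 ± 0.18). Several of these genes were high in parental cells, such as Fmnl1 at 89.2 and 87.6 CPM, Megf6 at 39.4 and 37.7 CPM and Chd3, a chromatin remodeller, at 57.9 and 57.7 CPM. All 12 were also higher than in the wild-type line and than in the T567D line (adjusted p under 0.05 for each). All but Rsad2 were called higher in wild type minus empty vector and in T567D minus empty vector too, so that the empty-vector line was the lowest of the ezrin-disrupted lines for these 11. Against parental cells, the empty-vector line was called lower for 9 of the 12 (the share over all genes is not given here). Mpeg1, a pore-forming protein gene of macrophages, went from 1.53 and 1.56 CPM to 10.5 and 10.9 CPM (2.79). The summed RPKM of the 10 myeloid markers was 273 and 279 in the empty-vector and 266 and 294 in the T567A libraries. That sum includes Csf1r, which was high in every library, while 3 of the markers were at 0 in all 4. It therefore cannot show a change in markers at low level.

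The 12 largest decreases were Cdc20b, Hspb7, Adamts2, Pcdh1, Acsbg1, Pmepa1, Sirpa, Nkain1, Foxd1, Ccno, Fstl1 and S100a7a. Cdc20b had 601 and 585 counts in the empty-vector libraries and 0 in both T567A libraries, which against the floor of 3 counts per library is at least 164-fold lower. It also had 0 counts in the parental and wild-type libraries and at most 2 in the T567D libraries, so that the empty-vector line stood apart for this gene. Hspb7, a small heat shock protein gene, fell from 88.6 and 89.5 CPM to 11.9 and 13.0 CPM (-2.83 ± 0.090), below the parental libraries (35.0 and 35.8 CPM) and those of the other constructs. S100a7a, a calcium-binding protein gene, fell from 196 and 193 CPM to 62.2 and 61.3 CPM (-1.65 ± 0.069), where no other line was below 151 CPM. Pmepa1, a TGF-beta target and feedback inhibitor, fell from 24.1 and 21.6 CPM to 5.45 and 5.73 CPM (-2.03 ± 0.22), where T567D libraries were at 38.1 and 54.9 CPM. For 7 of the 12, the T567A line was also lower than the wild-type line, and for 10 lower than the T567D line. All but Acsbg1, Pmepa1 and S100a7a were called lower than empty vector in wild type and in T567D as well. Against parental cells, the empty-vector line was called higher for 7 of the 12 (the share over all genes is not given here).

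**Figure D5:**
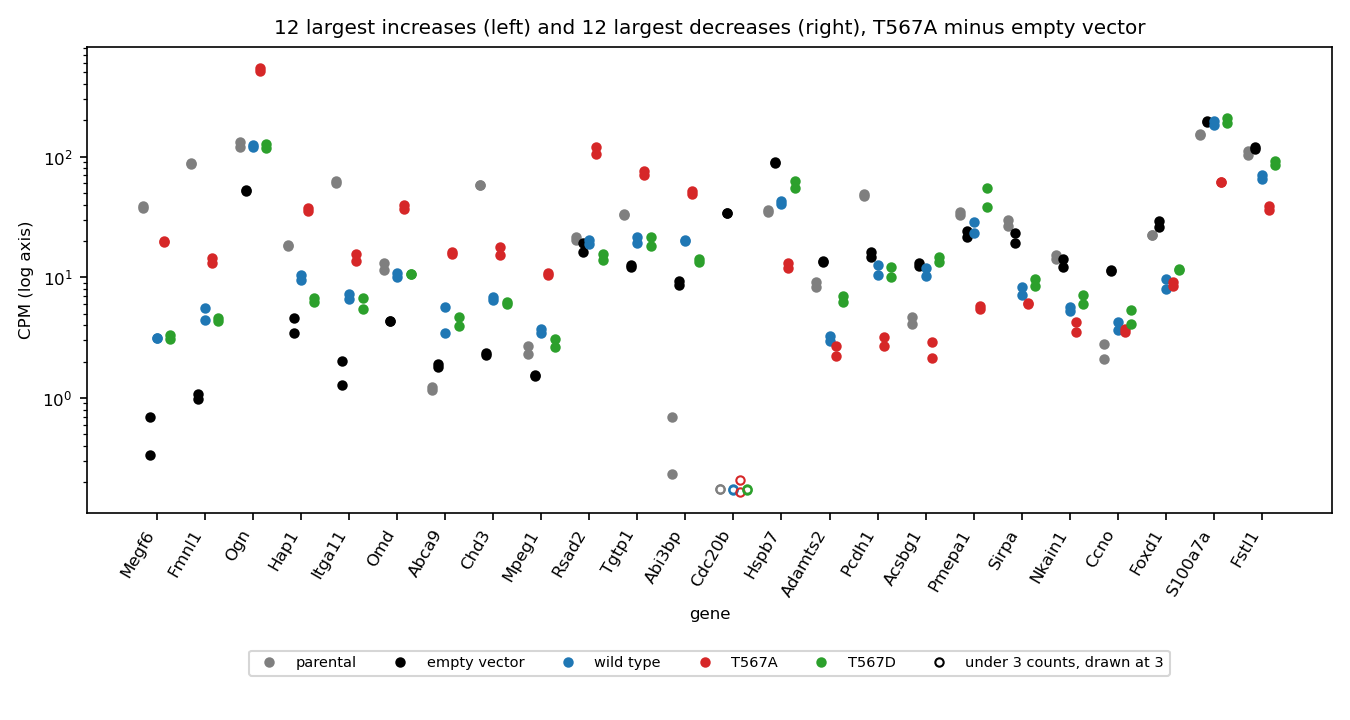
CPM on a log axis (y) of the 12 largest increases and 12 largest decreases (x) in each library, coloured by cell line, with open points for libraries under 3 counts, drawn at 3 counts. The T567A libraries are highest of the 4 derived lines for the 12 increases, while for Cdc20b only the empty-vector libraries, at 601 and 585 counts, are above the floor.

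Some changes were shared by genes that lie next to each other. Ordered along the chromosomes and divided into 380 runs of 25 neighbouring genes with at least 5 CPM, the run medians had quartiles of -0.10 and 0.10. The runs named here were picked after their values were seen and carry no test. The highest was chr2:136891218-146970097, from Slx4ip to Kiz, where 20 of 25 genes rose and none fell (median 0.70, and 0.63 with the GC correction). A pair of adjoining runs on chromosome 11, from Rhot1 to Smg8, had medians of 0.50 and 0.48 with 19 and 20 higher genes and none lower (0.45 and 0.43 with the GC correction). The first of these spans Ccl2, Ccl5, Ccl7, Ccl9, Slfn2 and Slfn8, all of which rose. The run that holds Ccno and Cdc20b, chr13:104792484-114157461, had 18 lower genes and a median of -0.38. Adjoining runs before it, from chr13:83721381 on, had 12, 18 and 14 lower and 1, 0 and 1 higher genes. Their medians were -0.21, -0.29 and -0.26, so that the shift was not confined to the run of Ccno and Cdc20b. Wild type minus empty vector was at -0.25, -0.30 and -0.35 in these, and T567D minus empty vector at -0.31, -0.37 and -0.34. In the run of Ccno and Cdc20b the median was also -0.34 in wild type minus empty vector and -0.39 in T567D minus empty vector. It was 0.47 in empty vector minus parental, so that the empty-vector line stood above the parental and the other derived lines there. The value against parental was not particular to this run: over the 363 genes of chromosome 13 its median was 0.42. Over the same genes T567A, wild type and T567D minus empty vector were each at -0.15. Gene copy number was not analysed here.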

How the data were processed

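Poly-A selected, strand-marked (dUTP) RNA-seq of 10 libraries, 2 per line, was compared. The authors deposited a raw read count and an RPKM value (reads scaled by gene length and library size) for each gene and library; the build is GRCm38 per the submitters' processing notes, and no source used here gives the aligner, counter or annotation. Counts of all 10 libraries were fitted with edgeR 4.0.16 (robust quasi-likelihood, TMM scaling, filterByExpr with minimum counts of 10 and 15, 5 residual degrees of freedom) and p-values adjusted over the 12595 genes tested; a gene was called at an adjusted p under 0.05. RPKM served for marker sums and for limma 3.58.1 on log2(RPKM + 1). DESeq2 1.42.0, other scalings, filters, a replicate block and leaving out each library were alternatives; the GC correction (GENCODE M21 transcripts, 12428 of the tested genes) was added after seeing the data. The procedure was tried on simulated data with 200 changed genes and no GC slope added. That setting differs from these data, so it gives no error rate for the calls here. The comparison, the gene lists and their members were chosen with earlier results of these data known. Genes were named by rule: Ezr, Msn and Rdx, the 12 largest increases and decreases (no pseudogenes or unnamed models), up to 4 called members per list, and members that define a pathway; other list members and Ifnb1 were named after their values were seen. Some genes that these rules name are not reported here. Replicates 2 and 3 of the T567A and empty-vector lines did not deviate together (r = -0.00742 over genes). Total counts ran from 14679424 to 18230763, so that 3 counts correspond to 0.167 to 0.207 CPM, which covers counting error only.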

Additional observations from a re-analysis of the deposited data

Results flagged for a closer look

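Of the 155 genes named by rule, 11 moved one way in the T567A line and the opposite way in both other ezrin lines, each change against empty vector passing edgeR's test, and T567A differed from wild type and from T567D in the test of the difference itself. Over all 12595 tested genes 118 (0.937%) had this pattern, against 7.1% of the named genes, which were chosen in part because they were called in T567A minus empty vector. These comparisons share the empty-vector libraries, so that an empty-vector value between the others gives the pattern. Of the 11, 8 were higher and 3 lower in T567A.

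Among the interferon and antigen presentation genes, Ifih1 rose by 1.32, where it was at -0.29 in wild type and -0.23 in T567D. Tap1 rose by 1.05, against -0.30 and -0.23, and H2-T22 by 0.99, against -0.21 and -0.20. Among the lipid genes, Msmo1 rose by 0.75, against -0.35 and -0.25, Cyp51 by 0.69, against -0.45 and -0.21, and Scd2 by 0.93, against -0.80 and -0.55. The folate enzyme gene Aldh1l2 rose by 0.88, against -0.20 and -0.23, and the protease gene Adamts1 by 1.60, against -0.30 and -0.25. Of the genes that fell, the collagen gene Col6a2 was at -1.34, against 0.59 in wild type and 0.48 in T567D. Alpl was at -0.98, against 0.77 and 1.20, and Egln3 at -2.07, against 0.86 and 1.53. T567A minus wild type ranged from 1.08 to 1.90 over the 8 higher genes and was -1.93, -1.75 and -2.93 for Col6a2, Alpl and Egln3.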

How the results depend on the processing

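Calls in T567A minus empty vector ranged from 4390 to 5767 when each of the 4 libraries was left out in turn, those in T567A minus wild type from 4005 to 5006 and those in T567A minus T567D from 4541 to 5474 when each T567A library was. A test against a change of 1.5-fold called 808 genes (531 higher, 277 lower) in the first comparison, 492 in the second and 643 in the third, fewer by construction. DESeq2 called 4514, 3642 and 4140. With the replicate number as a block, which did not pair these libraries, there were 5489 calls against empty vector (4866 with only those 4 libraries), 3355 against wild type and 3849 against T567D, and with the GC correction and the block 3318 against wild type. The Ezr change stayed between 1.77 and 1.81 without any of the 4 libraries. Of the single genes named, Srebf1, not called, turned to 0.17 with the GC correction, also with the block, and the cause was not tested. Low counts limit Ifnb1, Cd79a, Gvin1 and Cxcl9.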
